A study of Caenorhabditis elegans with 18 samples.

Results

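The genes described here encode the subunits of the proteasome and were taken as those whose symbol begins with pas- (alpha ring), pbs- (beta ring), rpn- (regulatory particle non-ATPase) or rpt- (regulatory particle ATPase) and a number. RefSeq WBcel235 names 33 such genes, and 32 of them had a row among the 39798 genes of the table; pas-3, an alpha subunit, had no matched row and was not analysed here. The 32 comprise 13 core genes (6 alpha, 7 beta) and 19 regulatory genes (6 base ATPases, 4 other base subunits and 9 lid subunits).

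The proteasome is the large protease that degrades proteins tagged with ubiquitin. Its core particle is a barrel of stacked rings, with alpha rings gating the ends and beta rings carrying the proteolytic sites inside. The regulatory particle caps the barrel: a base of ATPases unfolds substrates and feeds them in, and the base's other subunits and a lid bind and remove ubiquitin. In C. elegans, subunit transcripts are known to be raised together by the transcription factor SKN-1A when the proteasome is impaired, and rpn-6.1 has been studied as a lid subunit linked to stress resistance.

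Whole day 1 adults of 3 strains were sequenced: daf-16(mu86), strain CF1038, which lacks a functional FOXO transcription factor; pqm-1(ok485), strain RB711, a deletion in a zinc-finger transcription factor gene; and N2 Bristol, the control. Each strain was sampled after 1 h at 35 °C and 2 h of recovery at 20 °C (called heated below) or was kept at 20 °C, as populations of animals grown together on plates from synchronised larvae. Of 3 replicates per group in the labels, described as biological, the 2 numbered 2 and 3 were used, giving 12 libraries. The first value column, titled as the daf-16 20 °C replicate 1, holds transcript lengths, and the 5 other replicate 1 columns go against their labels on heat shock genes. The study asked how PQM-1 and DAF-16 shape resistance to stress.

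In the 12 libraries gene counts summed to 18650313 to 33399359. Heat shock genes followed the labels: hsp-16.2, a small heat shock protein gene, was at 257 to 577 CPM (counts scaled to library size) in the 6 heated libraries, against 0.0468 to 0.425 CPM in the 6 libraries at 20 °C, and hsp-70 at 40.8 to 342 CPM against 0.805 to 1.22 CPM. The pqm-1 transcript was at 19.2 and 21.5 CPM in heated and 12.6 and 9.92 CPM in 20 °C pqm-1 animals, against 33 and 32.4 CPM in heated and 26.1 and 24.1 CPM in 20 °C N2 animals. Its log2 fold change over N2 was −0.69 after heat and −1.16 at 20 °C, neither past the threshold. The daf-16 transcript lay at 90.0 to 115 CPM in the daf-16 strain and at 88.0 to 112 CPM in N2, so transcript counts do not check that label. Marker sums also moved with temperature. Over 5 sperm genes the heated libraries held 497 to 639 CPM against 770 to 879 CPM at 20 °C, over 5 germ line genes 2306 to 2731 CPM against 2886 to 3291 CPM, over 5 intestinal genes 11339 to 15763 CPM against 18788 to 26660 CPM, and over 4 neuronal genes 127 to 141 CPM against 100.1 to 116 CPM. The ranges overlapped for 5 oocyte and eggshell genes (1045 to 1627 against 1399 to 2441 CPM), 4 muscle genes (10145 to 11868 against 8286 to 10173 CPM) and 5 moulting genes (924 to 1265 against 869 to 1802 CPM). Within a list the members did not all move the same way. Of the germ line genes, cgh-1 fell and puf-8 rose after heat in the 3 strains: cgh-1 was at 592 to 739 CPM in heated and 971 to 1190 CPM in 20 °C libraries, and puf-8 at 114 to 127 CPM against 64.8 to 73.0 CPM. Of the neuronal genes egl-3 alone was called, higher in the 3 strains, and it made up most of that sum, at 106 to 118 CPM against 82.6 to 95.0 CPM. The sperm gene ssp-16 rose in N2 (0.60 ± 0.13, SE, adjusted p = 0.00337) while 3 msp genes of that list fell. In the intestinal list vit-2, vit-6 and asp-1 made up most of the sum. There ges-1 was called lower in daf-16 alone, and elt-2 was called in no strain. In N2 animals elt-2 was at 25.5 and 40.5 CPM after heat, against 30.7 and 30.2 CPM at 20 °C. These markers were named after their values were seen. No marker was at 0 in any group; the part of these shifts in the subunit results below was not tested. In whole animals, fewer cells of a type and less RNA per cell cannot be told apart.

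Levels were compared between genes as CPM per kb of the length in the table, which for all 32 members is a multiple of 3 and so a coding length. Core subunits formed a narrow, high band on this scale. Their means over the 12 libraries ran between 269 (pas-1) and 436 (pbs-1, the caspase-like subunit) CPM per kb, a 1.62-fold spread, with a median of 337. The catalytic subunits pbs-5 (chymotrypsin-like) and pbs-2 (trypsin-like) stood at 337 and 296 CPM per kb. The 12 highest of the 32 subunits were all core genes. This order rests on the division by length, which differs between the particles. Core rows were 609 to 855 bases long and regulatory rows 753 to 2946 bases. In CPM not divided by length, rpn-1 was at 364 to 508 and rpn-2 at 373 to 502 CPM. The highest core gene by that measure, pbs-1, was at 288 to 334 CPM.

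Regulatory subunits ranged more widely and lower on the per-kb scale, with a median of 220 CPM per kb. Base ATPases lay between 179 (rpt-6) and 279 (rpt-2) CPM per kb. The other base subunits, the scaffolds rpn-1 and rpn-2 and the ubiquitin receptors rpn-10 and rpn-13, held together at 148 to 163 CPM per kb. Lid subunits spread the most, between 37.1 CPM per kb for rpn-6.2 and 284 CPM per kb for rpn-7. The deubiquitinase gene rpn-11, whose product removes ubiquitin chains from substrates, was at 266 CPM per kb. Another protein-coding gene overlaps 10 of the 32 (pas-7, pbs-3, pbs-4, pbs-7, rpn-7, rpn-10, rpn-11, rpt-2, rpt-4 and rpt-6), and the counting is not stated to use strand, so values of these 10 are uncertain.

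**Figure D1:**
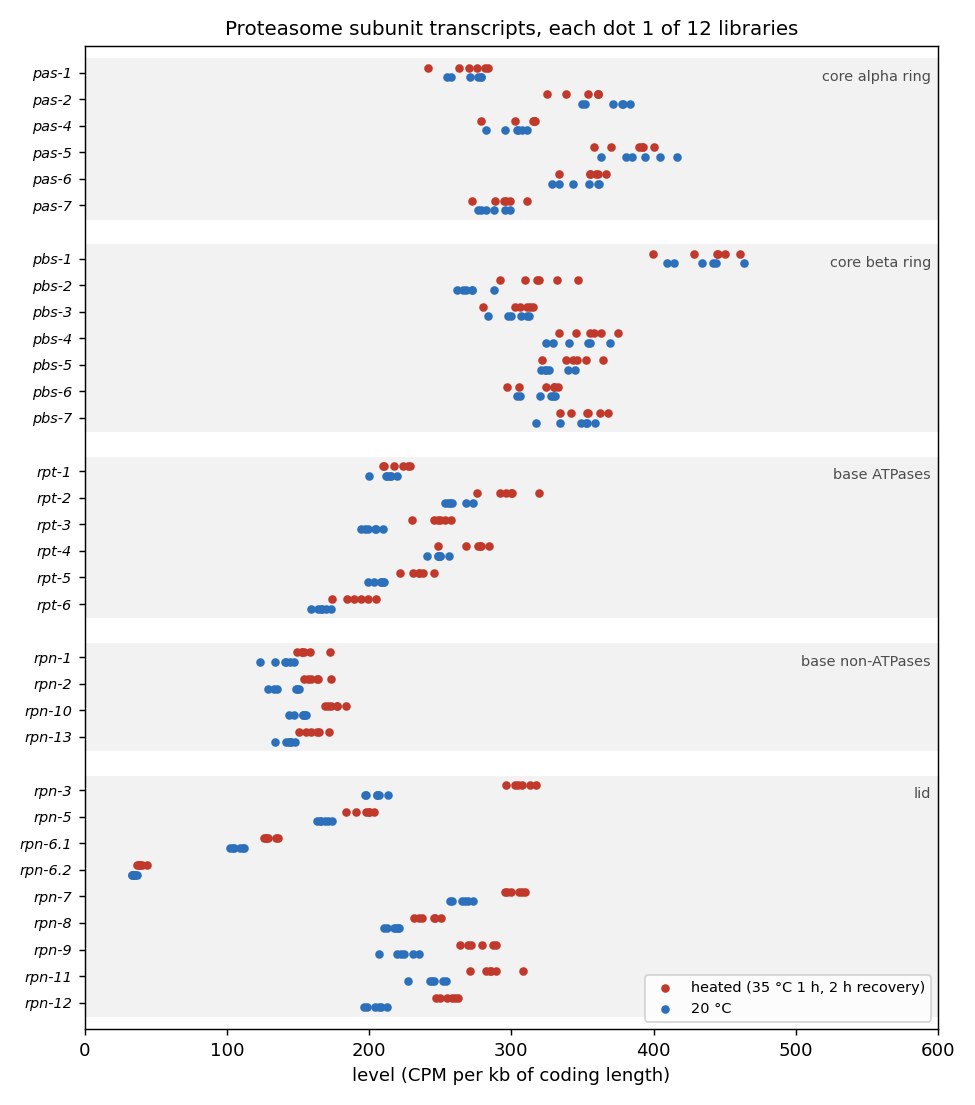
Level of each of the 32 proteasome subunit transcripts in CPM per kb of coding length (linear axis), grouped by role; each dot is 1 library, with the 6 heated libraries drawn above the 6 at 20 °C. Core genes cluster between 269 and 436 CPM per kb on average, and in most regulatory genes the heated dots lie to the right of the 20 °C dots.

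The paralogs rpn-6.1 and rpn-6.2 encode versions of the same lid subunit. Per kb, rpn-6.1 was 2.82 to 3.46 times as high as rpn-6.2 in the 12 libraries. The ratio was 3.32 and 3.46 in heated daf-16 animals, against 2.89 and 2.82 at 20 °C, and 3.38 and 3.37 in heated pqm-1 animals, against 3.13 and 3.06 at 20 °C, with no overlap in either strain. In N2 animals it was 3.45 and 2.89 after heat, against 3.36 and 3.30 at 20 °C, which overlap. The table carries a shorter rpn-6.2 row whose counts were 52.2 to 61.4% of the row used. Reads shared between the paralogs could have been split by the counting, which was not tested, so the ratio is uncertain. Before rounding, the count was not whole in 5 of the 12 libraries for rpn-6.1 and in 1 for rpn-6.2.

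After heat the regulatory particle's transcripts stood higher in sum, while those of the core were not set apart. The summed regulatory level was 5303 to 5843 CPM in the 6 heated libraries, against 4594 to 4860 CPM in the 6 libraries at 20 °C, with no overlap. The summed core level was 3001 to 3382 CPM in heated and 3016 to 3286 CPM in 20 °C libraries, which overlap. By strain, the mean regulatory sum was 21.7% higher in heated daf-16, 16.24% higher in heated pqm-1 and 13.8% higher in heated N2 animals than in the same strain at 20 °C. The mean core sum differed by 5.47%, 4.25% and −3.21% in the same order of strains.

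A score was taken per library as the mean log2 CPM of the core genes minus that of the regulatory genes. It was −0.11 ± 0.01 in heated daf-16 animals, against 0.09 ± 0.05 at 20 °C (SD, n = 2 libraries each). In pqm-1 animals it was −0.10 ± 0.03 after heat, against 0.05 ± 0.05 at 20 °C (SD, n = 2 each), and in N2 animals −0.12 ± 0.04 after heat, against 0.11 ± 0.0004 at 20 °C (SD, n = 2 each). All 6 heated libraries lay below 0, between −0.15 and −0.08, and all 6 libraries at 20 °C above it, between 0.02 and 0.12. The heated minus 20 °C differences were −0.20 in daf-16, −0.16 in pqm-1 and −0.23 in N2 animals; no p-value is given for a score over chosen genes. On the per-kb scale, the median core level was 1.42 to 1.47 times the median regulatory level in heated libraries, against 1.55 to 1.75 times at 20 °C.

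**Figure D2:**
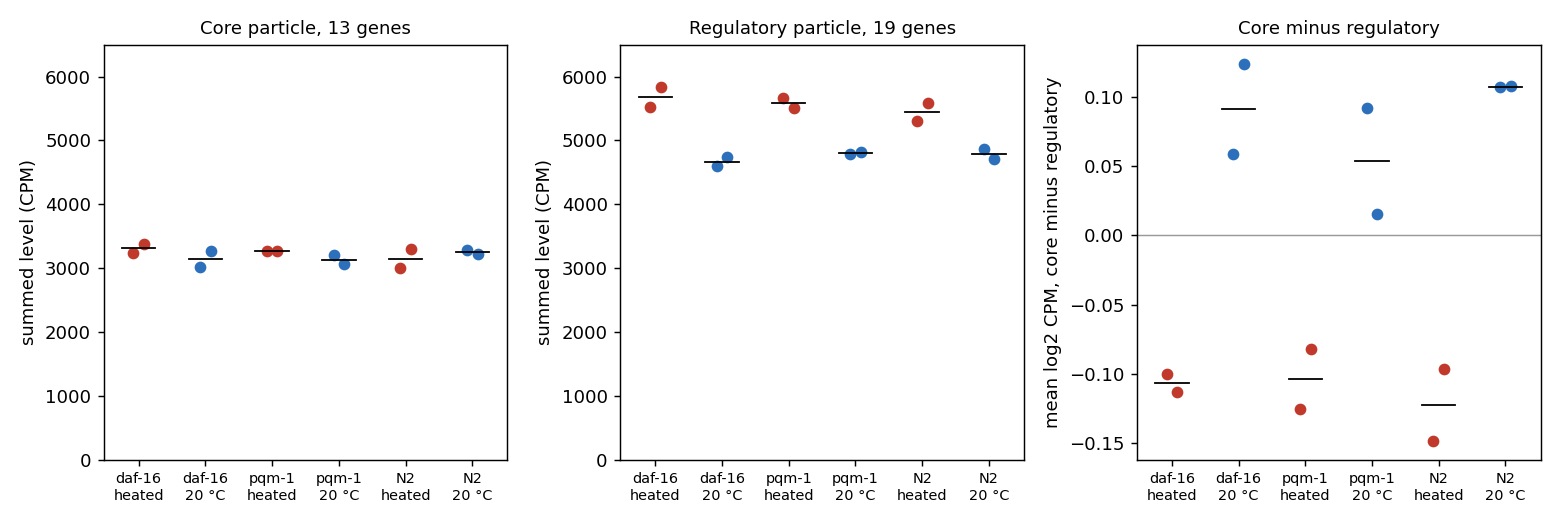
Summed CPM of the 13 core genes (left), summed CPM of the 19 regulatory genes (middle) and the core minus regulatory score in log2 units (right) for the 6 groups; dots are the 2 libraries of a group and lines their mean. Regulatory sums of the heated libraries lie at 5303 CPM or more while those at 20 °C lie at 4860 CPM or less, and the score is below 0 in the 6 heated libraries only.

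Each subunit was then tested for heat within each strain by edgeR's quasi-likelihood test fitted across 14278 genes, with a call at a Benjamini-Hochberg adjusted p under 0.05. All 32 subunits passed the low-count filter. In daf-16 animals 15 of 32 subunits (46.9%) rose and none fell, where 16.5% of all genes tested rose, 16.5% fell and 33.1% were called in either direction. In pqm-1 animals 8 of 32 (25%) rose and none fell, where 12.5% of all genes rose, 12.6% fell and 25.2% were called. In N2 animals 6 of 32 (18.8%) rose and none fell, where 16.8% of all genes rose, 17.9% fell and 34.7% were called. The N2 count over all subunits is thus near the background. By particle, the subunits that rose were 14 of 19 regulatory and 1 of 13 core in daf-16, 7 of 19 and 1 of 13 in pqm-1, and 6 of 19 and 0 of 13 in N2 animals. Leaving out 1 library lowered the count to 6 in daf-16 (without 20 °C replicate 2; 8 without heated replicate 3), to 3 in pqm-1 (without either 20 °C replicate or heated replicate 2; 5 without heated replicate 3) and to 2 in N2 (without replicate 3 of either N2 group, or without any 1 pqm-1 library). Scaling libraries by their totals alone gave counts of 17, 15 and 16 in daf-16, pqm-1 and N2. That scaling moved the share of all calls that were higher to 61.1% in pqm-1 and 61.8% in N2, against 49.7% and 48.5% as reported. For these alternatives the share of all genes called is not given here, so their counts are not set against a background.

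The median log2 fold change of the regulatory genes was 0.26 in daf-16, 0.19 in pqm-1 and 0.18 in N2 animals. For the core genes it was 0.07, 0.05 and −0.04 in the same order, and for all genes tested 0.03, 0.01 and 0.02. All 19 regulatory genes had a fold change above 0 in each strain. Of all genes tested 53.5%, 51.4% and 51.6% had one above 0 in daf-16, pqm-1 and N2. In N2 animals 11 of 13 core genes had one below 0, none of them called, and the sign of the N2 core median depended on the scaling and on 1 library. It was 0.04 when libraries were scaled by their totals alone, where the N2 median of all genes was 0.10 and that of the regulatory genes 0.27. It was 0.05 without heated N2 replicate 2 and −0.12 without heated N2 replicate 3, beside regulatory medians of 0.22 and 0.12. The standard errors were alike in both particles, 0.0709 to 0.0893 for core and 0.0634 to 0.0907 for regulatory genes.

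**Figure D3:**
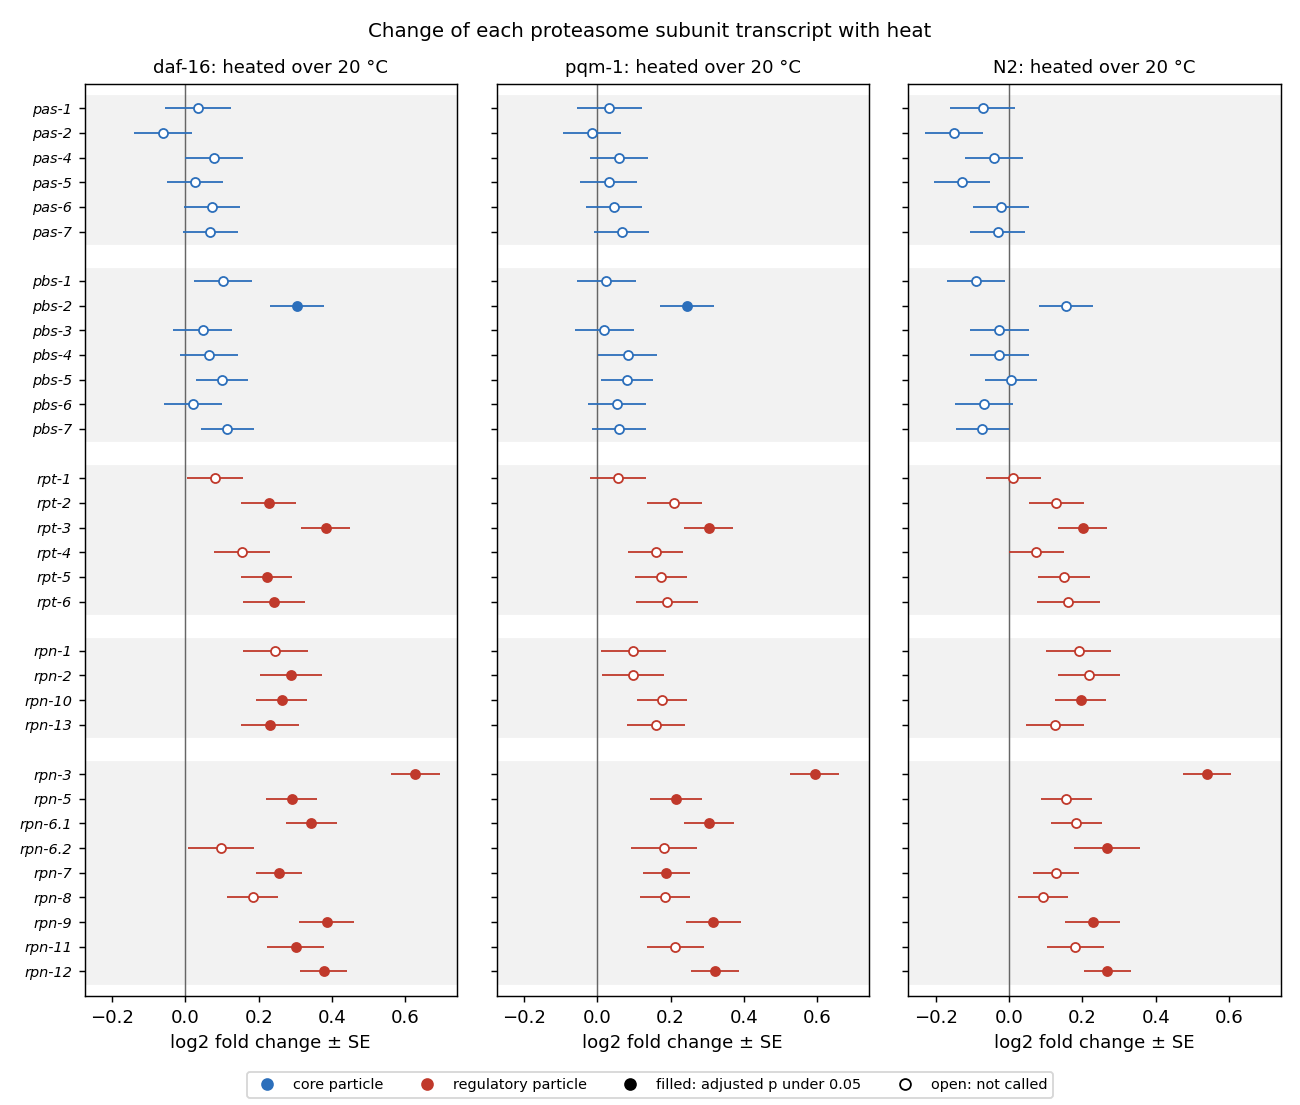
Log2 fold change of each subunit transcript, heated over 20 °C, with its standard error from edgeR in daf-16 (left), pqm-1 (middle) and N2 (right) animals, from 2 libraries per group; filled points passed an adjusted p of 0.05. Regulatory genes (red) lie to the right of 0 in all 3 panels, with rpn-3 farthest out at 0.54 to 0.63. Core genes (blue) lie near 0 apart from pbs-2 in daf-16 and pqm-1. In N2 the core genes farthest from 0 are pbs-2 (0.16), pas-2 (−0.15) and pas-5 (−0.13), none called.

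Among lid subunits, which include structural parts of the lid and its deubiquitinase, 7 of 9 rose with heat in daf-16, 6 of 9 in pqm-1 and 4 of 9 in N2 animals. The shares of all genes tested that rose were 16.5%, 12.5% and 16.8%. The structural lid subunit gene rpn-3 changed the most of all subunits in every strain. Its level was 458 and 466 CPM in heated daf-16 animals, against 298 and 300 CPM at 20 °C. In pqm-1 animals it was 481 and 462 CPM after heat, against 311 and 313 CPM at 20 °C. In N2 animals it was 449 and 474 CPM after heat, against 312 and 323 CPM at 20 °C. The lowest heated library thus stood well above the highest library at 20 °C. The log2 fold changes were 0.63 ± 0.07 (SE, adjusted p = 2.96e-05) in daf-16, 0.59 ± 0.07 (adjusted p = 6.78e-05) in pqm-1 and 0.54 ± 0.07 (adjusted p = 0.000111) in N2 animals.

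Another lid subunit gene, rpn-12, was at 192 and 194 CPM in heated daf-16, 198 and 196 CPM in heated pqm-1 and 186 and 188 CPM in heated N2 animals. At 20 °C it was at 149 and 148 CPM in daf-16, 160 and 156 CPM in pqm-1 and 154 and 157 CPM in N2 animals. The 2 sets did not overlap, and libraries of a group lay within a few CPM of each other. The log2 fold changes were 0.38 ± 0.07, 0.32 ± 0.07 and 0.27 ± 0.07 (SE) in daf-16, pqm-1 and N2, with adjusted p of 0.000967, 0.00359 and 0.00766. In N2 the call was lost when only the 2 N2 groups were fitted (adjusted p = 0.0572); over the other alternatives that kept to replicates 2 and 3 it held.

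The lid gene rpn-9 rose in all 3 strains too. It was at 334 and 337 CPM in heated daf-16 animals, against 241 and 273 CPM at 20 °C. In pqm-1 animals the values were 325 and 316 CPM after heat, against 259 and 256 CPM at 20 °C, and in N2 animals 307 and 313 CPM after heat, against 269 and 261 CPM at 20 °C. The groups did not overlap in any strain, and the 2 libraries of daf-16 at 20 °C were the farthest apart. Log2 fold changes were 0.39 ± 0.07, 0.32 ± 0.07 and 0.23 ± 0.07 (SE) in daf-16, pqm-1 and N2, with adjusted p of 0.00199, 0.00869 and 0.0334. The N2 call was lost under 10 of 21 alternatives, among them without any 1 N2 or pqm-1 library (adjusted p up to 0.138), and the pqm-1 call without either pqm-1 20 °C library or heated replicate 2 (up to 0.0721).

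The lid gene rpn-6.1 was at 168 and 177 CPM in heated daf-16, 179 and 170 CPM in heated pqm-1 and 166 and 168 CPM in heated N2 animals. At 20 °C it was at 135 and 137 CPM in daf-16, 139 and 143 CPM in pqm-1 and 146 and 148 CPM in N2 animals. Heated libraries were higher throughout. It rose in daf-16 (0.34 ± 0.07, SE, adjusted p = 0.00253) and pqm-1 animals (0.30 ± 0.07, adjusted p = 0.00682), and its value in N2, 0.18 ± 0.07 with an adjusted p of 0.0578, did not pass. The pqm-1 call was lost without replicate 2 of either pqm-1 group (adjusted p up to 0.0761). Its paralog rpn-6.2 was called in N2 alone, at 0.27 ± 0.09 (SE, adjusted p = 0.0368), against 0.10 ± 0.09 in daf-16 (adjusted p = 0.441) and 0.18 ± 0.09 in pqm-1 animals (adjusted p = 0.17). Its levels in N2 were 45.7 and 55.0 CPM after heat, against 41.3 and 42.5 CPM at 20 °C, and without heated replicate 3 the N2 value was 0.12 (adjusted p = 0.321). The N2 call was lost under 10 of 21 alternatives, also without either N2 20 °C library or any 1 pqm-1 library. The difference in its heat effect between daf-16 and N2 was −0.17 ± 0.13 (SE) and did not pass (adjusted p = 0.564).

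Of the remaining lid genes, rpn-5 and rpn-7 rose in daf-16 (0.29 and 0.26) and pqm-1 animals (0.22 and 0.19), and rpn-11 in daf-16 animals (0.30, adjusted p = 0.0116). The pqm-1 calls of rpn-5 and rpn-7 were lost under 11 and 16 of 21 alternatives, among them without any 1 pqm-1 library. In daf-16 the rpn-5 call was lost without 20 °C replicate 2 and with only the groups compared in the fit. The rpn-11 call there was lost without 20 °C replicate 2, without heated replicate 3 and with only the groups compared. The daf-16 call of rpn-7 was lost with no low-count filter and with only the groups compared (adjusted p up to 0.0907). The gene rpn-8, which pairs with rpn-11 in the lid, passed in no strain, with log2 fold changes of 0.18, 0.18 and 0.09 in daf-16, pqm-1 and N2.

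**Figure D4:**
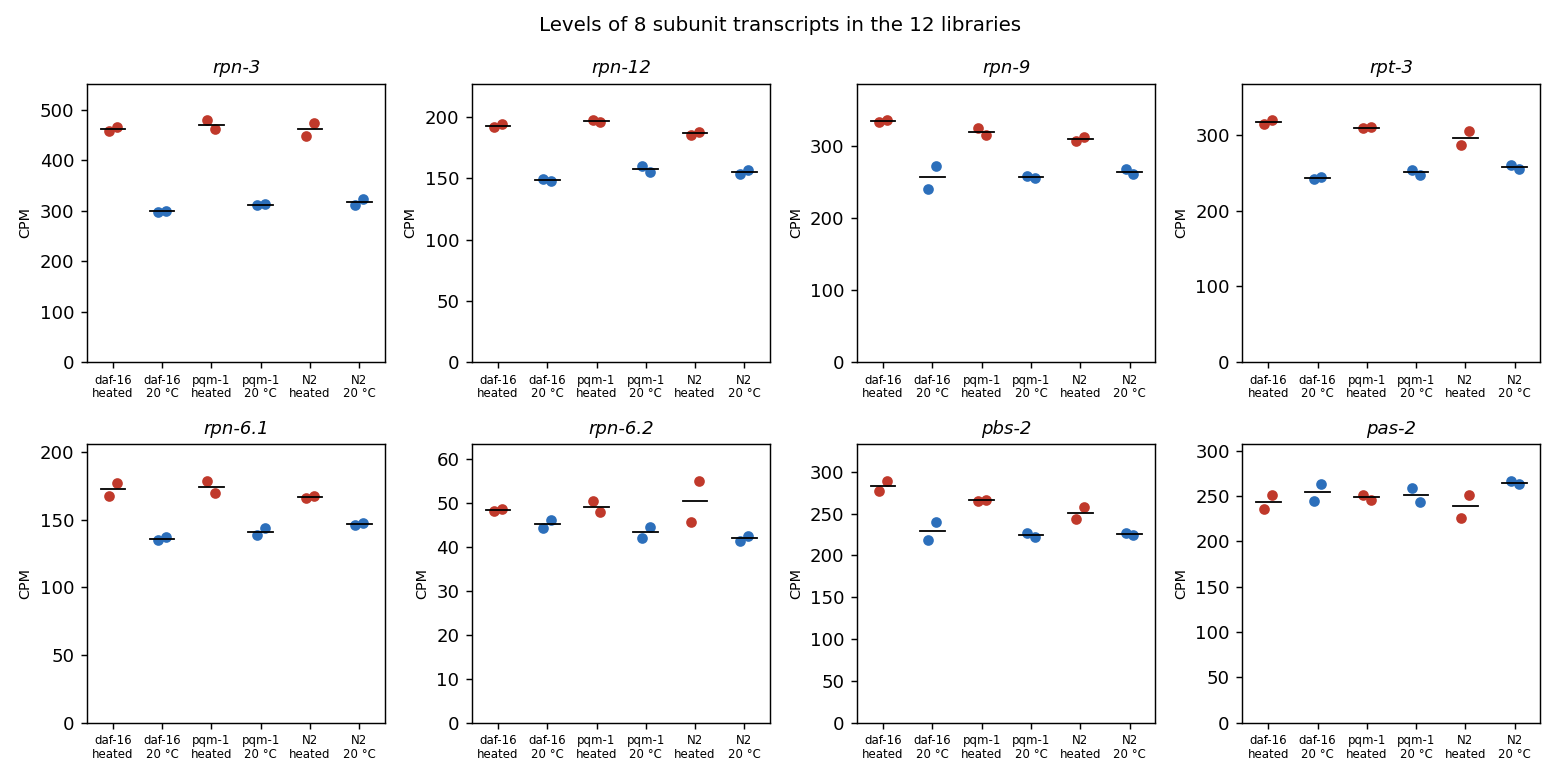
CPM of 8 subunit transcripts in the 6 groups, dots for the 2 libraries of a group and lines for their mean, with axes starting at 0. Heated libraries of rpn-3, rpn-12, rpn-9, rpt-3, rpn-6.1 and pbs-2 lie above every 20 °C library, while those of rpn-6.2 and pas-2 overlap them.

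The base ATPases form the ring that unfolds substrates. In daf-16 animals 4 of 6 rose, where 16.5% of all genes did. In pqm-1 and N2 animals 1 of 6 (16.7%) rose, which was rpt-3 in both. That count is near the share of all genes that rose, 12.5% in pqm-1 and 16.8% in N2. The rpt-3 transcript was at 315 and 320 CPM in heated daf-16 animals, against 242 and 245 CPM at 20 °C. In pqm-1 animals it was at 309 and 311 CPM after heat, against 254 and 248 CPM at 20 °C, and in N2 animals at 287 and 306 CPM after heat, against 261 and 255 CPM at 20 °C. The smallest gap between heated and 20 °C libraries was in N2. The log2 fold changes were 0.38 ± 0.07, 0.30 ± 0.07 and 0.20 ± 0.07 (SE) in daf-16, pqm-1 and N2, with adjusted p of 0.00104, 0.00573 and 0.0355. The N2 call was lost under 10 of 21 alternatives, among them without either N2 20 °C library, heated N2 replicate 3 or any 1 pqm-1 library (adjusted p up to 0.163), and the pqm-1 call without pqm-1 20 °C replicate 3 (0.0596). The genes rpt-2, rpt-5 and rpt-6 rose in daf-16 animals by 0.22 to 0.24 on the log2 scale and passed in neither other strain; their calls were lost under 13, 10 and 16 of 21 alternatives, in each case without either daf-16 20 °C library or heated replicate 3. At the low end of the regulatory particle was rpt-1, at 0.08 ± 0.08, 0.06 ± 0.08 and 0.01 ± 0.08 (SE) in daf-16, pqm-1 and N2, none called, and rpt-4 also passed in no strain.

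Of the 4 other base subunits, 3 rose in daf-16 animals: the scaffold rpn-2 (0.29) and the ubiquitin receptors rpn-10 (0.26) and rpn-13 (0.23), with calls lost under 4, 4 and 14 of 21 alternatives, in each case without daf-16 20 °C replicate 2 or heated replicate 3. In pqm-1 animals none passed, and in N2 animals rpn-10 did (0.20 ± 0.07, SE, adjusted p = 0.0457). Over all genes tested 16.5%, 12.5% and 16.8% rose in daf-16, pqm-1 and N2. The rpn-10 transcript was at 184 and 191 CPM in heated daf-16, 184 and 181 CPM in heated pqm-1 and 176 and 178 CPM in heated N2 animals. At 20 °C it was at 153 and 160 CPM in daf-16, 161 and 162 CPM in pqm-1 and 149 and 160 CPM in N2 animals. Heated libraries lay above those at 20 °C in all strains, yet the N2 call was lost under 15 of 21 alternatives, among them without any 1 N2 or pqm-1 library. The scaffold gene rpn-1 passed in no strain, with an adjusted p of 0.0515 in daf-16 animals.

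In the core, the trypsin-like beta subunit gene pbs-2 was the one gene that rose. That made 1 of 13 core genes (7.69%) in daf-16 and in pqm-1 and 0 of 13 in N2. Among all genes tested 16.5%, 12.5% and 16.8% rose in daf-16, pqm-1 and N2. The pbs-2 transcript was at 277 and 289 CPM in heated daf-16 animals, against 218 and 240 CPM at 20 °C. In pqm-1 animals it was at 265 and 266 CPM after heat, against 227 and 222 CPM at 20 °C, and in N2 animals at 244 and 258 CPM after heat, against 227 and 224 CPM at 20 °C. All 6 heated libraries exceeded all 6 at 20 °C. The log2 fold changes were 0.30 ± 0.07 (SE, adjusted p = 0.00726) in daf-16, 0.24 ± 0.07 (adjusted p = 0.0289) in pqm-1 and 0.16 ± 0.07 (adjusted p = 0.122, not called) in N2 animals. The daf-16 call was lost without 20 °C replicate 2 and with only the groups compared in the fit. The pqm-1 call was lost without any 1 pqm-1 library and with no low-count filter. Over the alternatives that kept to replicates 2 and 3 the fold change was at least 0.235 in daf-16 and 0.223 in pqm-1. The other catalytic subunits did not pass: pbs-5 was at 0.10, 0.08 and 0.00, and pbs-1 at 0.10, 0.02 and −0.09, in daf-16, pqm-1 and N2.

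None of the 6 alpha ring genes, whose products gate the barrel, passed in any strain. Among all genes tested 16.5%, 12.5% and 16.8% rose in daf-16, pqm-1 and N2, and 16.5%, 12.6% and 17.9% fell. With 6 genes, 0 rising is near the share that rose. The lowest value of all subunits in each strain was that of pas-2. Its transcript was at 236 and 251 CPM in heated daf-16, 251 and 246 CPM in heated pqm-1 and 226 and 251 CPM in heated N2 animals. At 20 °C it was at 245 and 263 CPM in daf-16, 259 and 243 CPM in pqm-1 and 267 and 263 CPM in N2 animals. The heated and 20 °C libraries overlapped in daf-16 and pqm-1 animals, and in N2 animals both heated libraries were the lower ones. The log2 fold changes were −0.06 ± 0.08, −0.01 ± 0.08 and −0.15 ± 0.08 (SE), with adjusted p of 0.583, 0.922 and 0.157.

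Libraries were also compared by overlap. Both heated libraries lay above both at 20 °C for 18 of 19 regulatory and 4 of 13 core genes in daf-16, 19 of 19 and 8 of 13 in pqm-1, and 17 of 19 and 1 of 13 in N2 animals; 34.9%, 34.7% and 33.9% of all genes tested did so in these strains. The 8 core genes in pqm-1 stand against 1 called by the test there. Both lay below for 3 core genes in N2 (pas-2, pas-5 and pbs-7), where 33.3% of all genes did so. Across strains, all 6 heated libraries exceeded all 6 at 20 °C for 16 of 19 regulatory genes, the exceptions being rpn-6.2, rpt-1 and rpt-4, and for 1 of 13 core genes, against 14.3% of all genes tested.

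The order of the subunits by heat effect was alike in the 3 strains. Across the 32 genes the Spearman correlation of the log2 fold changes was 0.90 between daf-16 and pqm-1, 0.85 between daf-16 and N2, and 0.85 between pqm-1 and N2; these comparisons share no library, but they share the fit and the genes' own abundance. Within the 13 core genes it was 0.54, 0.46 and 0.70, and within the 19 regulatory genes 0.76, 0.68 and 0.52, in that order of pairs.

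No subunit was called between strains. Of 14278 genes, 2.49% were called between daf-16 and N2 at 20 °C, 1.09% after heat, 0.063% between pqm-1 and N2 at 20 °C and 0.28% after heat, and none of the 32 subunits was among them. At an unadjusted p under 0.05, 1 subunit stood out, pbs-2 between heated daf-16 and heated N2 animals (0.17 ± 0.07, SE, adjusted p = 0.254), and none in the other comparisons of strains. DESeq2 called none of the 32 in any comparison of strains either. Log2 fold changes over N2 ran between −0.12 (pas-5) and 0.11 (rpn-6.2) for daf-16 at 20 °C, and between −0.10 (pas-5) and 0.11 (rpn-2) for pqm-1 at 20 °C. After heat they ran between −0.06 (rpn-6.2) and 0.17 (pbs-2) for daf-16, and between −0.04 (rpn-6.2) and 0.09 (pas-4) for pqm-1.

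The difference of the heat effect between strains was tested as an interaction. It was called for 0 of 32 subunits and for 0% of all genes in each of the 3 pairs of strains, also at an unadjusted p under 0.05 for the subunits and with DESeq2 for the subunits. The fitted heat effect in daf-16 exceeded that in N2 for 31 of 32 subunits, the exception being rpn-6.2, and for 51.6% of all genes tested. The median difference was 0.10 against 0.01 over all genes. The fitted heat effect in pqm-1 exceeded that in N2 for 28 of 32 subunits and for 50.8% of all genes tested. The median difference was 0.08 against 0.00478 over all genes. Between daf-16 and N2 the highest single differences were 0.19 ± 0.11 (SE, adjusted p = 0.438) for pbs-1, 0.19 ± 0.10 (adjusted p = 0.411) for pbs-7 and 0.18 ± 0.09 (adjusted p = 0.388) for rpt-3. These comparisons share the N2 libraries, and subunits of a particle moved together between the replicates of a group. Replicate 3 exceeded replicate 2 for 13 of 13 core genes in heated N2 (median log2 ratio 0.13) and in daf-16 at 20 °C (0.12), and for 0 of 13 in pqm-1 at 20 °C (−0.07). The larger number of subunits called in daf-16 than in N2 animals is therefore not shown to be a difference between the strains.

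Genes that work with the proteasome were described from chosen lists in the same fit, with no alternative run for them. Of 7 partners with a row, 5 rose with heat in daf-16, 3 in pqm-1 and 3 in N2 animals, and none fell. Among all genes tested 16.5%, 12.5% and 16.8% rose, and 16.5%, 12.6% and 17.9% fell. The list's median was 0.31, 0.24 and 0.31. The activator cap gene psme-3 rose by 0.48, 0.42 and 0.34 and the shuttle factor gene ubql-1, which carries ubiquitinated proteins to the proteasome, by 0.44, 0.29 and 0.31 on the log2 scale in daf-16, pqm-1 and N2. The largest fold change was that of aip-1, an arsenite-inducible gene whose product binds the proteasome. It was at 75.6 and 44.5 CPM in heated daf-16, 41.8 and 45.4 CPM in heated pqm-1 and 44.5 and 30.9 CPM in heated N2 animals, against 22.3 and 23.4, 27.1 and 24.4, and 28.4 and 24.7 CPM at 20 °C in these strains. It rose in daf-16 (1.39 ± 0.22, SE, adjusted p = 0.00048) and pqm-1 animals (0.76 ± 0.22, adjusted p = 0.0228), and stood at 0.50 ± 0.21 in N2 (adjusted p = 0.0899). The shuttle factor gene rad-23 rose in daf-16 alone; of the 2 relatives of the adaptor ECM29, ecps-2 was called in daf-16 and ecps-1 in N2, while the deubiquitinase gene usp-14 was at 0.02, 0.01 and −0.10 and was not called.

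**Figure D5:**
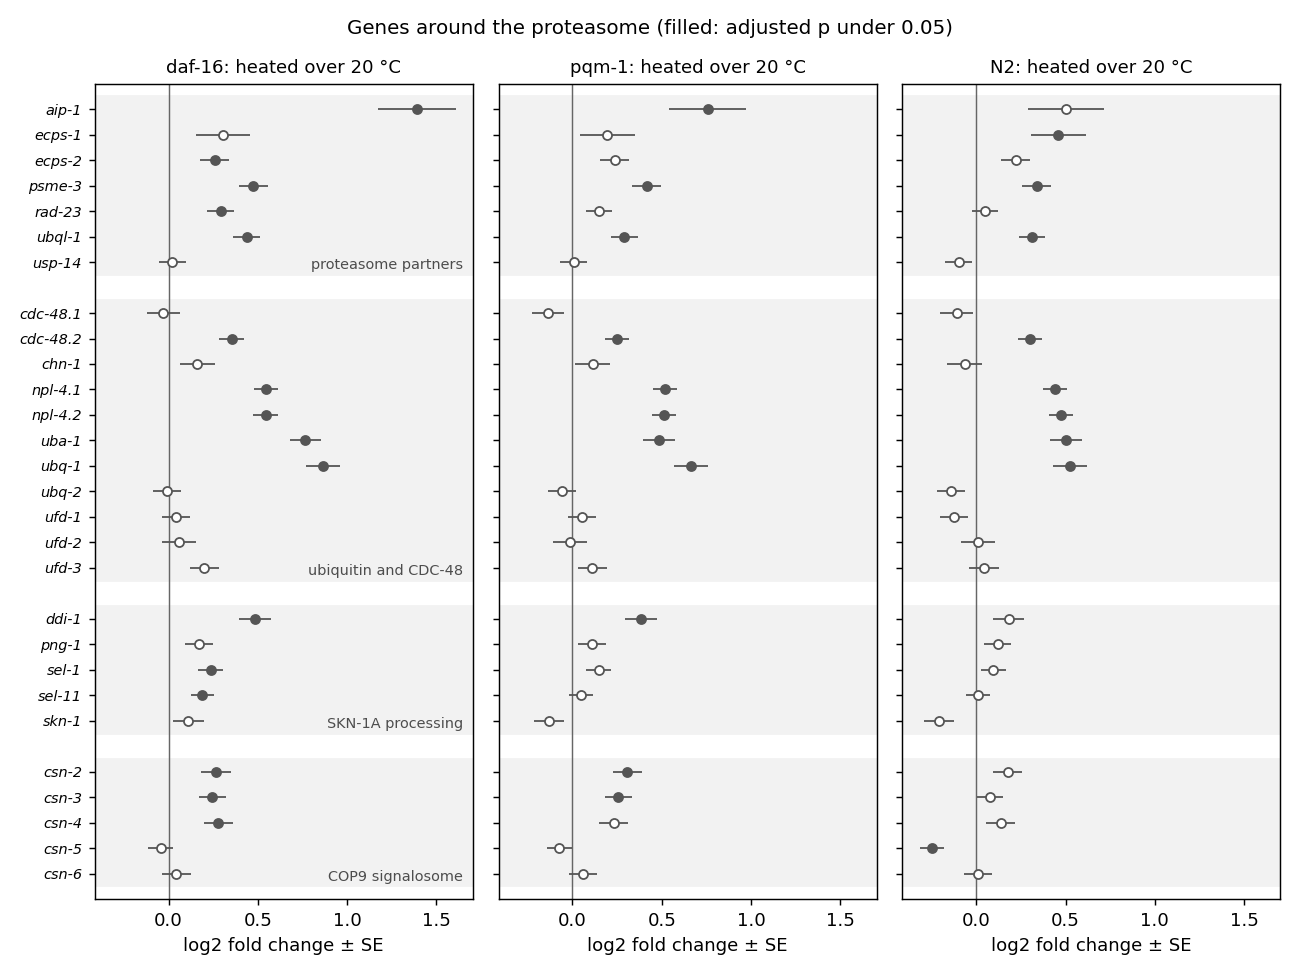
Log2 fold change with standard error, heated over 20 °C, of 28 genes that partner the proteasome, supply or handle ubiquitin, process SKN-1A or form the COP9 signalosome, in daf-16 (left), pqm-1 (middle) and N2 (right) animals; filled points passed an adjusted p of 0.05. The genes ubq-1, uba-1, cdc-48.2, npl-4.1, npl-4.2, psme-3 and ubql-1 are filled in all 3 panels.

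Of 11 genes for ubiquitin and the CDC-48 segregase, which extracts ubiquitinated proteins from complexes, 5 rose in each strain and none fell. List medians were 0.20, 0.11 and 0.04 in daf-16, pqm-1 and N2. In that order 16.5%, 12.5% and 16.8% of all genes tested rose, and 16.5%, 12.6% and 17.9% fell. The polyubiquitin gene ubq-1 was at 1777 and 1587 CPM in heated daf-16 animals, against 906 and 943 CPM at 20 °C. In pqm-1 animals it was at 1542 and 1514 CPM after heat, against 970 and 961 CPM at 20 °C, and in N2 animals at 1500 and 1320 CPM after heat, against 1070 and 894 CPM at 20 °C. Its log2 fold changes of 0.86, 0.66 and 0.52 exceeded those of all core subunits and, in daf-16 and pqm-1, of all regulatory subunits. The ubiquitin-activating enzyme gene uba-1 rose by 0.77, 0.49 and 0.50 on the log2 scale. The cofactor genes npl-4.1 and npl-4.2 rose by 0.44 to 0.55 on that scale. They are near-identical copies of the same length whose reads the counting could split, so their separate values are uncertain. Both are among the 5 that rose and both enter the list medians, so they may stand for 1 measurement there. Of the 2 segregase genes cdc-48.2 rose in all strains (0.35, 0.25 and 0.30), while cdc-48.1 was at −0.03, −0.14 and −0.11 and passed in none.

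SKN-1A is cut and edited before it raises subunit transcripts. Of 5 genes of this route 3 rose in daf-16, 1 in pqm-1 and 0 in N2 animals, with medians of 0.19, 0.11 and 0.09. Among all genes tested 16.5%, 12.5% and 16.8% rose in these strains, and 16.5%, 12.6% and 17.9% fell. With 5 genes, 1 rising in pqm-1 is near that share. The protease gene ddi-1 was the gene called in pqm-1 (0.38) and also rose in daf-16 animals (0.48), and stood at 0.18 in N2 (adjusted p = 0.125). The endoplasmic reticulum degradation genes sel-1 and sel-11 rose in daf-16 animals by 0.24 and 0.19, and skn-1 itself passed in no strain (0.11, −0.13 and −0.21). Of 5 genes of the COP9 signalosome, a relative of the lid, 3 rose in daf-16 (csn-2, csn-3 and csn-4), 2 in pqm-1 (csn-2 and csn-3) and none in N2 animals, where csn-5 fell by 0.25 on the log2 scale (adjusted p = 0.0156). No gene of these 4 lists was called between strains.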

How the data were processed

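The deposited table holds 50755 transcript rows. The estimated counts the authors deposited are not scaled to depth, and 13.3% were not whole; the aligner, counter, strand setting and build are not given in the sources used here. Other than those counts, 1 deposited column holds transcript lengths in bases under a sample's title. Rows were matched by ID to RefSeq WBcel235 (45910 matched; 4845 did not, holding 23.4 to 24.3% of counts, and were left out), keeping per gene the transcript with the highest mean. Counts were rounded and fitted in edgeR 4.0.16 (R 4.3.3; limma 3.58.1) with 6 groups, TMM factors, filterByExpr and the quasi-likelihood test with Benjamini-Hochberg adjustment over 14278 genes (6 residual degrees of freedom; SE from the fold change and F). CPM uses TMM library sizes; log2 CPM adds a prior count of 2. All comparisons were among the 6 groups; the labels give no batch. The script was tested on simulated data. DESeq2 1.42.0 and other alternatives were run (closing section). Members and lists were chosen with earlier results of these data known. The naming rule covers all members, with values in every library for those called most often, the largest and smallest heat effects and the rpn-6 paralogs; pbs-2, rpn-10, aip-1 and ubq-1 were added after their values were seen.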

Additional observations from a re-analysis of the deposited data

Results flagged for a closer look

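The 5 count columns titled replicate 1 enter no comparison above. In them rpn-3, rpn-12, rpn-9, rpt-3 and pbs-2 went against the temperature in the column titles. The pas-2 values overlapped, at 249.5 to 272.1 CPM in columns titled 35 °C and 257.4 to 278.3 CPM in those titled 20 °C. Other subunits were compared there through the score only. For the N2 column titled 20 °C, rpn-3 stood at 469.1 CPM, and for the pqm-1 column titled 20 °C at 460.5 CPM, both above the highest 20 °C library used (323.5 CPM). In the 3 columns titled 35 °C it was at 309 to 340 CPM, below the lowest heated library used (449 CPM). The core minus regulatory score was 0.01 to 0.11 in these 3 columns and −0.11 to −0.04 in the other 2. The heat shock gene hsp-16.2 was at 0.0387 to 0.4 CPM in the 3 columns and at 207 to 324 CPM in the other 2. No column was relabelled. Whether the titles are displaced by 1 column was not tested, so the replicate numbers used here are those of the titles only.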

How the results depend on the processing

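With 2 libraries per group the number of subunits called depended on the processing, while no called subunit reversed direction under any alternative run. The share of all genes called under each alternative is not given here. The counts below thus do not separate a change in the subunits from a general change in calls. In the order daf-16, pqm-1 and N2 the counts were 15, 8 and 6 as reported. They were 9, 5 and 2 with no low-count filter, 5, 14 and 1 with only the groups compared in the fit, 17, 15 and 16 with scaling by library totals alone, 11, 6 and 4 by DESeq2, and 0, 0 and 0 with all 17 count columns under their titles. Leaving out 1 library gave 6 to 15, 3 to 9 and 2 to 7. Of 29 calls, 8 held under all 21 alternatives other than the titles: those of rpn-3 in the 3 strains, of rpn-12 in daf-16 and pqm-1, and of rpn-6.1, rpn-9 and rpt-3 in daf-16.

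The core minus regulatory difference could not be checked by rescaling, because a factor per library cancels in it almost wholly. Leaving out 1 library it ran between −0.23 and −0.17 in daf-16, −0.20 and −0.12 in pqm-1 and −0.26 and −0.20 in N2. Between strains it was, as reported, −0.016 for daf-16 and −0.0535 for pqm-1 over N2 at 20 °C, and 0.0159 and 0.0188 after heat. With all columns under their titles it was −0.136, −0.0547 and −0.113, and at 20 °C 0.0559 for daf-16 and −0.0133 for pqm-1 over N2. With the median over members it was −0.0174 for daf-16 and 0.0641 for pqm-1 over N2 after heat, so both daf-16 values turned sign; the cause was not tested. No count between strains or interaction left 0 under any alternative.

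Replicate numbers did not pair the samples: the correlation of replicate deviations was −0.24 to 0.22 over 15 pairs of groups, over 0.1 in 1. With the number as a replicate block, 14, 6 and 4 subunits were called in daf-16, pqm-1 and N2.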
